A study of Mus musculus with 6 samples.

Results

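Of 45 genes of the skeletal muscle contractile apparatus and its calcium handling and energy supply, 15 had lower signal in inguinal fat of high weight gainers than of low weight gainers, and 0 had higher signal, by limma, where 3.99% of all probes were lower at the same thresholds. The genes were chosen by name, as the probes whose only gene symbol is among the 45. The list of 45 was drawn up with earlier results of these data known, so its share of called genes is not from a blind choice. The series holds named probes for 34 of them, among 13840 named genes in all, and 26 of them had a value on all 6 arrays, among 8596 genes. The falls lay in genes of fast fibers (7 of 10) and in genes that fast and slow fibers share (8 of 13). Only 3 slow-fiber genes could be tested, and 0 were called. Of these 3, 2 had dim probes (low mean signal), against 0 of the 10 fast genes. The 4 slow genes with a blank had values in 3 of 12 cells in high gainers and 8 of 12 in low gainers. The count of called slow genes therefore cannot show whether slow genes fell less than fast ones.

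The mice were male C57BL/6J, kept on a high-fat diet (D12331) for 4 weeks from 8 weeks of age, and the tissue was inguinal fat, the subcutaneous depot of the groin, from animals at opposite ends of the weight gain distribution. RNA of 8 high gainers formed 1 pool and RNA of 8 low gainers another, and both groups share strain, sex, diet and depot. Each pool was hybridized to 3 one-color arrays. The 3 arrays repeat 1 pool, so the p-values cover the spread between arrays and hold for these pools, not for mice.

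In striated muscle, thin filaments of actin, tropomyosin and troponin slide past thick filaments of myosin when calcium binds to troponin C. Fast and slow fibers build this machinery from different isoforms of the same proteins, and fast fibers take calcium back up with a pump and a buffer of their own. Inguinal fat is a depot of adipocytes that lies over the muscles of the groin and hind limb. Some of the listed genes, such as those of the tropomyosins and desmin, are also used by other cells. Which cells of the depot gave the signal of the listed genes was not tested.

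Signals are given as linear intensities after the quantile normalization of the authors. A gene was called where its Benjamini-Hochberg adjusted p from limma, over all 15821 probes with 6 values, was under 0.01 and the fold change was at least 1.5. At this rule 3.99% of all probes were called lower in high gainers and 2.5% higher, so that the 15 of 26 genes are 57.7% against a background of 3.99%. All 3 high-gainer arrays lay below all 3 low-gainer arrays for 21 of the 26 genes, where 16.3% of all probes did so. The log2 ratio of high over low gainers was below 0 for 25 of 26 genes, against 45.9% of all probes. The median log2 ratio was -0.79 over the 26 genes and 0.03 over all probes. At an unadjusted p under 0.05 in limma, 19 of the genes were lower and 0 higher, where 13.6% of all probes were lower. By the methods' t-test 16 were lower and 0 higher, where 4.29% of all probes were lower, and 4 passed a 2-fold threshold in limma, where 2.54% of all probes did. With 1 probe a gene, 4.04% of the 8596 genes were called lower. Of the 4 genes with dim probes, those in the lowest 33.3% by mean signal, 1 was called (background 4.17%), and of the 22 others 14 (background 3.91%). When each array was left out in turn, 7 of the 15 genes were called in all 6 fits, and 7 to 11 of the 26 were called in each. In bulk tissue, fewer cells of a type and less RNA per cell cannot be told apart.

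The 13 adipocyte marker genes with 6 values, among them Fabp4 and Plin1, had a summed signal of 8938264 to 10041321 on the high-gainer arrays and 8204663 to 9296783 on the low-gainer arrays. Correlations over all probes were 0.988 to 0.994 within a pool and 0.972 to 0.98 between pools, and no array stood apart from its pool. The summed signal of the 26 genes was 2089607 to 2152378 on the high-gainer arrays and 3184950 to 3588825 on the low-gainer arrays. As the deviation of each array from a gene's mean over all 6, the median over the genes was -0.37, -0.34 and -0.38 on the log2 scale on the high-gainer arrays and 0.39, 0.37 and 0.40 on the low-gainer arrays. The difference therefore lay on all arrays of each pool to nearly the same extent.

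**Figure D1:**
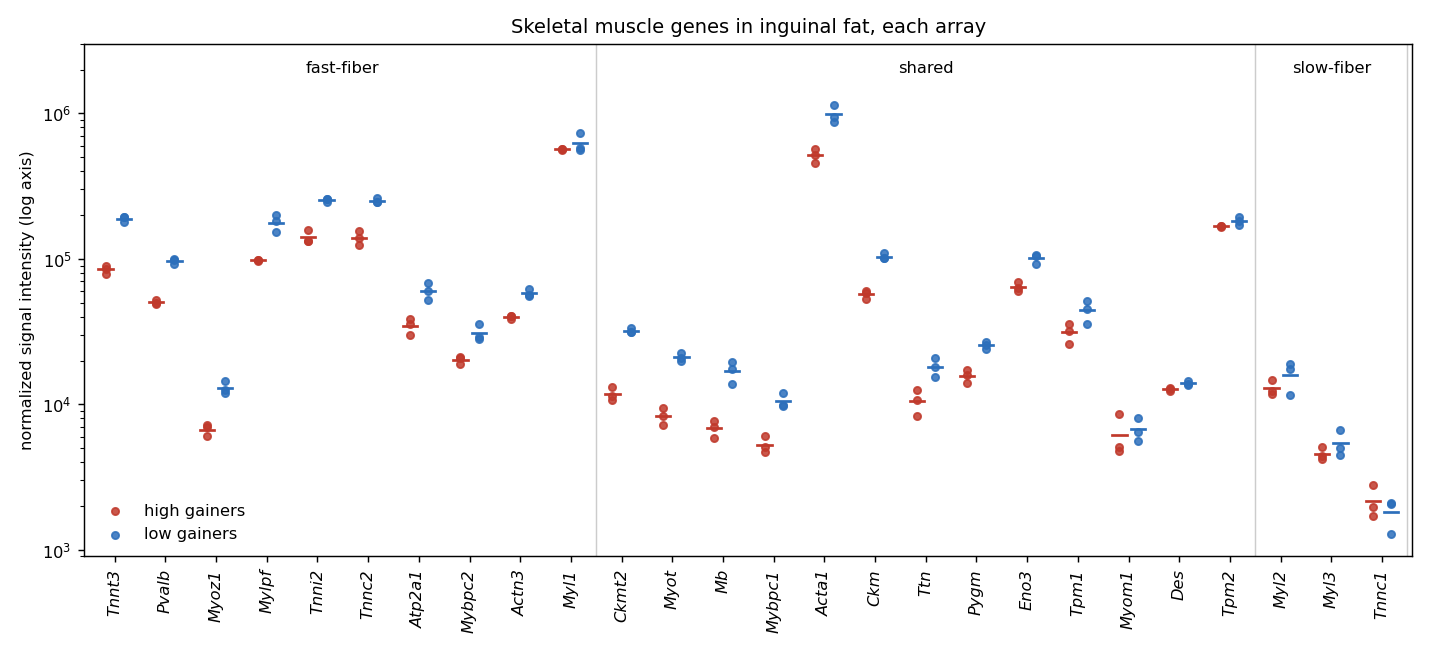
Normalized signal intensity, on a log axis, of the 26 genes on each array, by fiber class, with high gainers in red left of low gainers in blue, a point for each of 3 arrays and a line at their mean. The red points lie below the blue for 21 genes, such as Acta1 with means of 513843 in high gainers and 985495 in low gainers, and the points of all 3 slow genes overlap.

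In the thin filament, 4 of 7 genes were called lower, with a median log2 ratio of -0.85. Acta1, skeletal muscle alpha-actin, the backbone of the filament, had signals of 569809, 517629 and 454091 in high gainers, against 1133259, 873485 and 949741 in low gainers. The groups did not overlap, and the high-gainer mean of 513843 ± 57951.8 stood against 985495 ± 133527 in low gainers (SD, n = 3 arrays each), 1.91-fold lower (log2 ratio -0.94, SE 0.14, limma adjusted p = 0.00408). Tnnt3, fast troponin T, which ties the troponin complex to tropomyosin, had 78970, 85684 and 89153 in high gainers and 193528, 193360 and 180423 in low gainers. It was the most changed gene of the filament, 2.24-fold lower (log2 ratio -1.16, SE 0.10, limma adjusted p = 0.000392). Tnni2, fast troponin I, which holds the filament inhibited at rest, had 131680, 133707 and 158622 in high gainers and 257249, 247244 and 256222 in low gainers, 1.80-fold lower (limma adjusted p = 0.00208). Again every high-gainer array lay below every low-gainer array.

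The calcium sensor of the filament comes as a fast and a slow gene. Tnnc2, fast troponin C, had 138223, 124754 and 156520 in high gainers, against 244251, 262411 and 244129 in low gainers, 1.80-fold lower (log2 ratio -0.85, SE 0.11, limma adjusted p = 0.00273). Tnnc1, the slow and cardiac form, had 1706, 2784 and 1967 in high gainers and 1279, 2080 and 2096 in low gainers. Its groups overlapped, and its log2 ratio of 0.25 had a 95% interval of -0.33 to 0.82 (limma adjusted p = 0.549). Tnnc1 was the only one of the 26 genes with a ratio above 0, and its probe is among the dimmest, at percentile 3.41 of all tested probes. The tropomyosins, which cover the myosin binding sites on actin, did not pass. Tpm1 had 26060, 31677 and 35769 in high gainers and 35899, 51658 and 45228 in low gainers, which did not overlap by a narrow margin (log2 ratio -0.50, limma adjusted p = 0.0912). Tpm2 averaged 167709 ± 2686.45 in high gainers and 181745 ± 11237.9 in low gainers (SD, n = 3 arrays each; log2 ratio -0.11, limma adjusted p = 0.455). Both tropomyosin genes are also used by smooth muscle and other cells.

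The upstream sequences of the pair that differed most, Tnnc2 and Tnnc1, and of Acta1 are shown as the 250 bases before each gene's start, from RefSeq (GRCm38.p6), 5′ to 3′ on the gene's strand. Capitals mark E-boxes (CANNTG, the core bound by the MyoD family of muscle regulators) and, in Acta1, a CArG box, the core bound by serum response factor. Tnnc2 lies on the minus strand at chr2:164779735-164779984, Tnnc1 on the plus strand at chr14:31208062-31208311 and Acta1 on the minus strand at chr8:123894776-123895025.
Tnnc2: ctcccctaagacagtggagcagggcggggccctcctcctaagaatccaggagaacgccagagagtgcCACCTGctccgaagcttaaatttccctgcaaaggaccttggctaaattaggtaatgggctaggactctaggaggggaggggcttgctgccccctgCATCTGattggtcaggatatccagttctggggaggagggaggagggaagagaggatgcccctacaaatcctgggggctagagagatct
Tnnc1: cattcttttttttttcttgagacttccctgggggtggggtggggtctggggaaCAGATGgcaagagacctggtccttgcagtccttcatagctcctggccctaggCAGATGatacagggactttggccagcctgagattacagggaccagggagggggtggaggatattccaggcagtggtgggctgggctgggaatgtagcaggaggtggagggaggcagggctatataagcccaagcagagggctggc
Acta1: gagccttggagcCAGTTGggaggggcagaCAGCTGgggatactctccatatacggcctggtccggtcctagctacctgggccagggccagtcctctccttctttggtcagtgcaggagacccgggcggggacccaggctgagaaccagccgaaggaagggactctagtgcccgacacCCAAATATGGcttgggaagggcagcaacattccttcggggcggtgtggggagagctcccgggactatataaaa
Each of the 3 stretches holds 2 E-boxes, so that the fast gene that fell and the slow gene that was not called do not differ in that count. RefSeq entries were found for 21 of the 26 genes, 25 entries in all, of which 3 overlapping ones belong to Mb. Read on both strands, an E-box was found in 24 of the 25 (96%), against 66.2% of all 32851 promoters of the same length. It was found in 13 of 14 entries of called genes (92.9%) and in 11 of 11 entries of genes not called. A CArG box was found in 3 of 25 (12%), those of Acta1, Myl3 and Myom1, against 1.47% of all promoters. Of these 3 genes only Acta1 was called, and a match is a description of these letters only.

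In the thick filament, 2 of 6 genes were called lower, with a median log2 ratio of -0.45. Mylpf, the fast regulatory light chain of myosin, had 97882, 98290 and 96708 in high gainers and 152429, 198746 and 181712 in low gainers, 1.81-fold lower (log2 ratio -0.85, SE 0.12, limma adjusted p = 0.00318). The high-gainer arrays were nearly equal and far below the others. Its slow counterpart Myl2 had 12327, 11701 and 14610 in high gainers, against 11557, 17488 and 18996 in low gainers. These values overlapped through the first low-gainer array, and the log2 ratio of -0.29 had a 95% interval of -0.75 to 0.17 (limma adjusted p = 0.373).

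Myl1, the fast essential light chain, gave 568230, 566391 and 562486 in high gainers, against 729624, 556659 and 581672 in low gainers by its brightest probe. The groups overlapped, with a log2 ratio of -0.13 (limma adjusted p = 0.531). A second Myl1 probe gave 42968, 39829 and 47122 in high gainers and 60114, 74596 and 75719 in low gainers, without overlap and 1.61-fold lower (limma adjusted p = 0.0106). The 2 probes of Myl1 thus disagree, and neither was called. Myl3, the slow essential light chain, had 5076, 4180 and 4420 in high gainers and 4514, 4973 and 6681 in low gainers, on a dim probe. Its values overlapped, with a log2 ratio of -0.23 and a 95% interval of -0.61 to 0.15 (limma adjusted p = 0.399).

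The myosin binding proteins C, which brace the thick filament, were both lower on all high-gainer arrays. Mybpc1, the slow type by name, is used by slow and fast fibers and was counted here as shared. Its signals were 4706, 6032 and 5101 in high gainers and 11928, 9810 and 9818 in low gainers, 1.99-fold lower on a dim probe (limma adjusted p = 0.00282). Mybpc2, the fast form, averaged 20246.7 ± 1256.76 in high gainers and 30897.7 ± 4050.21 in low gainers (SD, n = 3 arrays each), 1.52-fold lower, and missed the adjusted threshold (limma adjusted p = 0.0151). The myosin heavy chains themselves gave little: Myh1, Myh2 and Myh4, the fast forms, were not analysed here for want of a named probe. Myh7, the slow form, had no value on the 3 high-gainer arrays and values of 865 and 1326 on 2 of the low-gainer arrays.

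Among the proteins of the Z-disc and M-band, which anchor the filaments, 2 of 6 genes were called lower, with a median log2 ratio of -0.66. Myot, which encodes myotilin, an actin-binding protein of the Z-disc, had 8363, 9435 and 7163 in high gainers, against 22499, 20007 and 20914 in low gainers, 2.55-fold lower (log2 ratio -1.35, SE 0.12, limma adjusted p = 0.000577). Myoz1, a calcineurin-binding Z-disc protein of fast fibers, had 7163, 6930 and 6043 in high gainers and 12494, 14368 and 11913 in low gainers, 1.92-fold lower (limma adjusted p = 0.002). Neither gene's groups came near each other.

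Actn3, the alpha-actinin of fast fibers, had 40672, 38314 and 40544 in high gainers and 61771, 55813 and 56017 in low gainers. It passed on p (limma adjusted p = 0.00873) but not on size, at 1.45-fold lower. Ttn, the spring that runs from Z-disc to M-band, had 10649, 12576 and 8350 in high gainers and 20886, 15307 and 18036 in low gainers, without overlap, and missed the threshold (log2 ratio -0.79, limma adjusted p = 0.0242). A second and dim Ttn probe gave a log2 ratio of -0.13 (limma adjusted p = 0.501). Des, the desmin intermediate filament that smooth muscle and pericytes also contain, had 13038, 12301 and 12659 in high gainers and 13869, 14424 and 13666 in low gainers, a log2 ratio of -0.14 (limma adjusted p = 0.318). Myom1, of the M-band, overlapped between the groups on a dim probe (log2 ratio -0.17, limma adjusted p = 0.694).

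Both calcium genes that could be tested were called lower. Atp2a1, the fast-fiber calcium pump of the sarcoplasmic reticulum, had 38757, 35508 and 29859 in high gainers, against 68168, 52348 and 60458 in low gainers, 1.74-fold lower (log2 ratio -0.80, SE 0.14, limma adjusted p = 0.00964). This is the called gene nearest to the threshold, and a second probe of it, at a log2 ratio of -0.89, was not called (limma adjusted p = 0.0237). Its call was lost in each of the 6 fits that left out an array. Pvalb, parvalbumin, the cytosolic calcium buffer that lets fast fibers relax quickly, had 49232, 51850 and 49626 in high gainers and 99956, 98106 and 92439 in low gainers. It was 1.93-fold lower, with tight arrays in both pools (log2 ratio -0.95, SE 0.09, limma adjusted p = 0.000631).

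Of the 2 RefSeq promoters of Pvalb, the one shown, at chr15:78206401-78206650 on the minus strand of GRCm38.p6, is the only promoter of the 25 without an E-box. Its capitals mark a match to the MEF2 motif, the core bound by another family of muscle transcription factors.
Pvalb: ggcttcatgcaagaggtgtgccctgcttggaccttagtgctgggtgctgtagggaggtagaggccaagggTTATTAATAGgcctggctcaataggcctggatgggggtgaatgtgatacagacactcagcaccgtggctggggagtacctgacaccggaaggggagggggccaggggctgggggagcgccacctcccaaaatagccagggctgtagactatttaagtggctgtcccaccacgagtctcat
MEF2 matches were found in 2 of the 25 promoters (8%), those of Pvalb and Ttn, against 2.92% of all promoters. The other Pvalb promoter holds 1 E-box and no MEF2 match.

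All 5 genes of energy supply with 6 values were called lower, with a median log2 ratio of -0.86. Ckmt2, the creatine kinase of muscle mitochondria, had 11497, 10750 and 13243 in high gainers and 31582, 31290 and 33394 in low gainers. Its fall of 2.72-fold was the largest of the 26 genes (log2 ratio -1.44, SE 0.11, limma adjusted p = 0.000309). Mb, myoglobin, which stores oxygen in oxidative fibers, had 7725, 5912 and 6970 in high gainers and 13728, 19575 and 17440 in low gainers, 2.45-fold lower (log2 ratio -1.29, SE 0.16, limma adjusted p = 0.00209). The most changed energy genes were thus a mitochondrial and an oxygen-binding protein, and which cells of the depot gave their signal was not tested. Ckm, the cytosolic creatine kinase, had 58431, 53266 and 59689 in high gainers and 100572, 109963 and 100765 in low gainers, 1.82-fold lower (limma adjusted p = 0.00127). Eno3, muscle enolase, had 63052, 59865 and 69253 in high gainers and 104842, 106397 and 92680 in low gainers, 1.58-fold lower (limma adjusted p = 0.00622), a call that was lost in each of the 6 fits that left out an array. Pygm, muscle glycogen phosphorylase, averaged 15712.7 ± 1564.52 in high gainers and 25518.7 ± 1399.99 in low gainers (SD, n = 3 arrays each), 1.63-fold lower (limma adjusted p = 0.00554). Among the 8596 genes ordered by log2 ratio, the called genes stood between rank 85 (Ckmt2) and rank 430 (Eno3) from the lowest, and Tnnc1 at rank 6699.

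**Figure D2:**
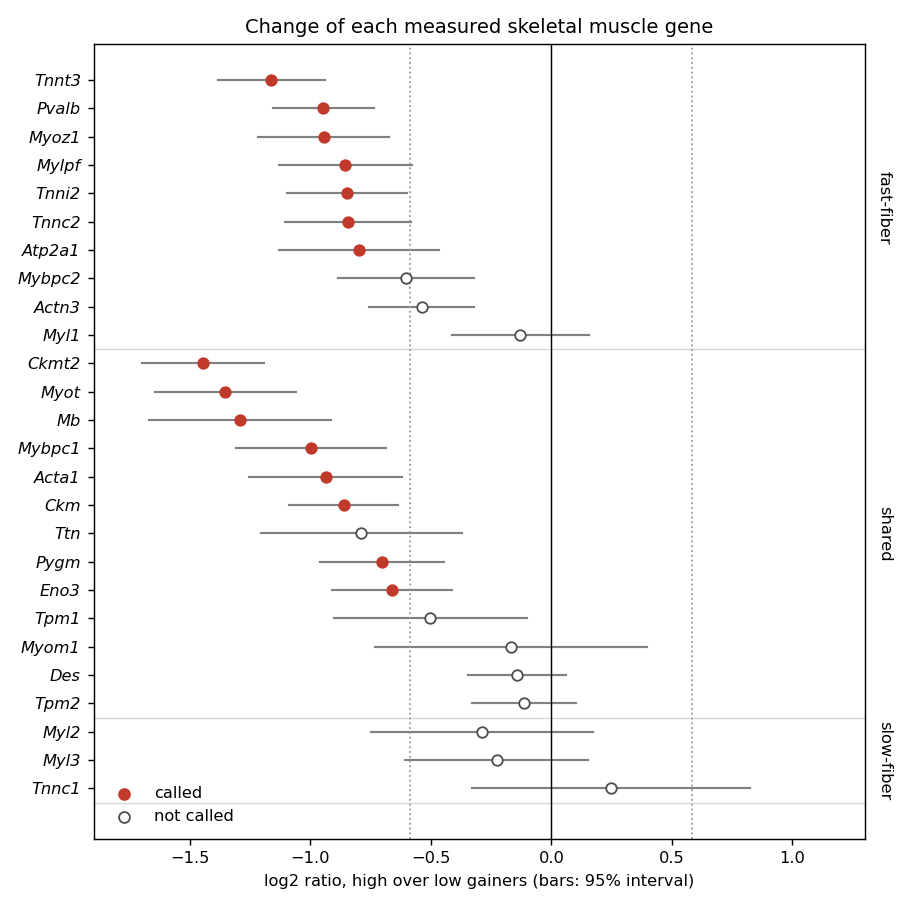
Log2 ratio of high over low gainers for each of the 26 genes, by fiber class, with bars for the 95% interval, filled points for called genes and dotted lines at 1.5-fold. The ratios run from -1.44 for Ckmt2 to 0.25 for Tnnc1, and all called genes lie below 0.

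Grouped by fiber class, the fast genes had a median log2 ratio of -0.85 (range -1.16 to -0.13) and the shared genes -0.79 (range -1.44 to -0.11). Mybpc1, the slow type by name, was counted among the shared genes and was called lower. High-gainer arrays lay below low-gainer arrays for 9 of 10 fast and 12 of 13 shared genes. The 3 slow genes had a median of -0.23 (range -0.29 to 0.25), none had groups that did not overlap, and 0 were lower or higher at an unadjusted p under 0.05 in limma or by the methods' t-test. On single arrays the median deviation of the slow genes was -0.18, -0.23 and 0.03 in high gainers and -0.29, 0.11 and 0.42 in low gainers, which overlap. Without low-gainer array 3 the slow median was -0.06, and without low-gainer array 1 it was -0.34. The intervals of Myl2 and Myl3 include both no change and a fall of 1.5-fold, so that a fall of that size is not excluded in them. That of Tnnc1 (-0.33 to 0.82) does not reach a fall of 1.5-fold. Its probe is dim (percentile 3.41), however, so that such a fall is not excluded there either. Of the 7 slow genes listed, 4 had a blank on at least 1 array, against 0 of the 10 fast genes with a named probe.

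Whether a fast isoform changed differently from its slow counterpart could be tested for 3 of the 6 proteins listed as pairs. The log2 ratio of Tnnc2 lay below that of Tnnc1 (difference -1.09, SE 0.36, 95% interval -2.09 to -0.10), and that of Mylpf differed from that of Myl2 by -0.57 (SE 0.17, 95% interval -1.04 to -0.10). In both pairs the fast over slow ratio was lower on every high-gainer array than on every low-gainer array, and the two-sided exact permutation p was 0.1, the smallest that 3 against 3 arrays allow. For Myl1 against Myl3 the difference was 0.10 (SE 0.27, 95% interval -0.66 to 0.85, exact permutation p = 0.7), with arrays that overlapped. This value rests on the brightest Myl1 probe (log2 ratio -0.13), while the second Myl1 probe had -0.69. With probes of a gene averaged, the difference of Myl1 and Myl3 was -0.18, so its direction depends on the probe. The exact test cannot go below 0.1 with 3 arrays a pool, and the intervals, which rest on the linear contrast, are not adjusted for the 3 pairs. The Tnnc1 probe is dim (percentile 3.41), and with an offset of the 10th percentile the difference of Tnnc2 and Tnnc1 was -0.93. That offset (2848) is above every Tnnc1 signal, so it flattens the Tnnc1 ratio and leaves mostly the fall of Tnnc2. It therefore cannot show whether the difference depends on the dim probe. The pairs of Tnni2 with Tnni1 and Tnnt3 with Tnnt1 could not be formed because of blanks, and that of Myh4 with Myh7 for want of a named probe.

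**Figure D3:**
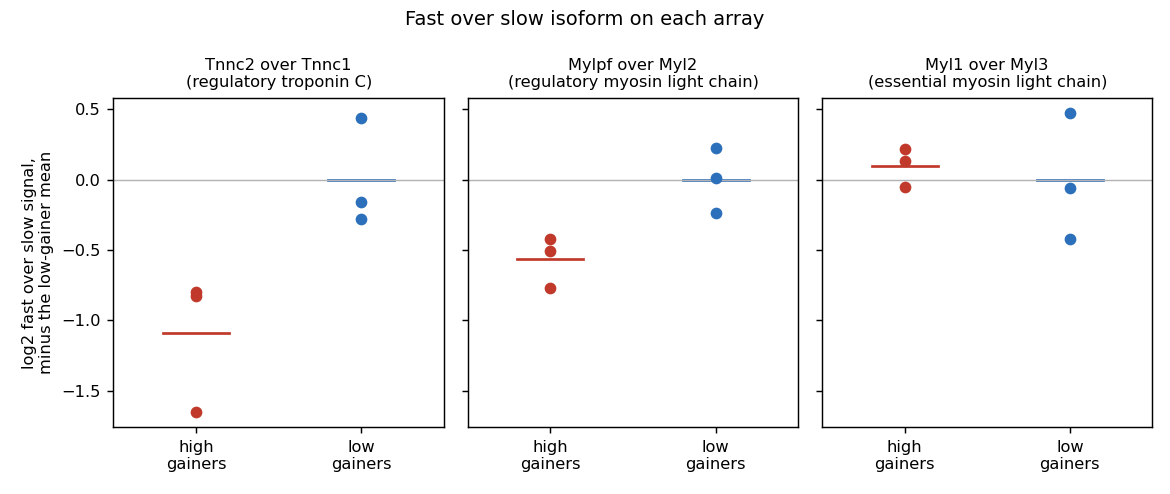
Log2 of fast over slow isoform signal on each array for 3 proteins, set to a low-gainer mean of 0, with high gainers left and low gainers right and a line at the mean of 3 arrays. The differences of the means, by the brightest probe of each gene, are -1.09 for troponin C, -0.57 for the regulatory light chain and 0.10 for the essential light chain.

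Of the other listed genes, 11 had no named probe and were not analysed here, namely Myh1, Myh2, Myh4, Actn2, Neb, Casq1, Cacna1s, Cacng1, Trdn, Smpx and Ampd1. The 8 genes with a blank were all dim where they had a value, 886 to 2104 in high gainers and 865 to 3254 in low gainers, with values in 9 of 24 cells of high-gainer arrays and 14 of 24 of low-gainer arrays. Tnnt1, slow troponin T, had no value in high gainers and 2361 and 1515 on 2 arrays in low gainers. Tnni1, slow troponin I, had 886 and 1276 on 2 arrays in high gainers and 1105 on 1 array in low gainers. Csrp3, a Z-disc protein of slow fibers and heart, had 1668 on 1 array in high gainers and 1673, 2220 and 1602 in low gainers. Of the 4 slow genes with a blank, 1 had more values in high gainers and 3 had more in low gainers, with values in 3 of 12 cells in high gainers and 8 of 12 in low gainers. Ldb3, of the Z-disc, had 944 and 927 in high gainers and 2414 and 1612 in low gainers, on 2 arrays each. Myom2, of the M-band, had 1826 and 1951 in high gainers and 2862 and 3254 in low gainers, also on 2 arrays each. These pairs did not overlap, and no fold or test was computed for them. Ryr1, the calcium release channel, had 1179 and 2104 in high gainers and 2150 and 1754 in low gainers, on 2 arrays each, which overlap. Tcap, the titin cap, was blank on all 6 arrays.

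Beyond the 45 genes, 100 others that muscle uses for calcium handling, sarcomeres, energy supply, regulation and development were listed, of which 41 had 6 values. Of these 4 were called lower (9.76%, against 3.99% of all probes) and 2 higher (against 2.5% of all probes), with a median log2 ratio of -0.08. On all high-gainer arrays 13 of 41 lay lower and 9 lay higher, against 16.3% and 20.3% of all probes. Fabp3, which carries fatty acids in oxidative muscle and heart, fell by 1.77 on the log2 scale (limma adjusted p = 0.000371) and Pgam2, muscle phosphoglycerate mutase, fell by 0.94 (limma adjusted p = 0.00577). Tmod4, which caps thin filaments in skeletal muscle, fell by 0.96 on a dim probe (limma adjusted p = 0.00216), and Srl, sarcalumenin of the sarcoplasmic reticulum, fell by 0.65 (limma adjusted p = 0.00964). When each array was left out in turn, Fabp3 was called in 6 of 6 fits, Tmod4 in 4, Pgam2 in 1 and Srl in 0. The 2 that rose were Cryab, a small heat shock protein of many tissues, with a log2 ratio of 0.68 (limma adjusted p = 0.00253), and Myl4, the atrial and embryonic essential light chain, also with 0.68 (limma adjusted p = 0.00384). Each of the 2 was called in 1 of the 6 fits that left out an array, and neither after centering on the adipocyte markers. By list, 1 of 8 calcium genes, 1 of 15 sarcomere genes and 2 of 12 energy genes were lower, and 0 of 4 regulators and 0 of 2 developmental or cardiac isoforms.

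**Figure D4:**
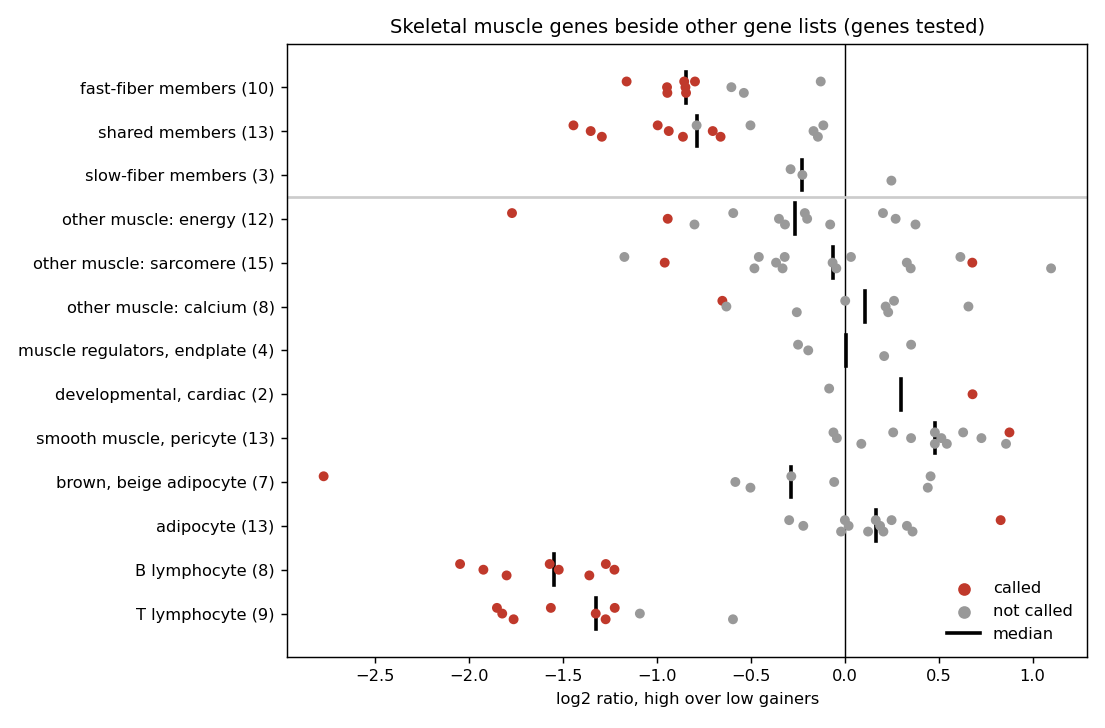
Log2 ratios of high over low gainers for the 26 genes by fiber class, for other muscle genes and for marker lists of 5 other cell types, with a point for each gene, red where it was called, a line at each median and the number of genes in brackets. The medians are -0.85 for fast, -0.79 for shared and -0.23 for slow genes, 0.48 for smooth muscle and pericyte markers, -1.33 for T lymphocyte and -1.55 for B lymphocyte markers.

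Marker lists of other cell types held called genes in some cases and none in others. No gene was called among 7 macrophage markers (median log2 ratio 0.10), 8 endothelial markers (0.27) and 2 nerve and Schwann cell markers (0.52), and 1 of 13 adipocyte markers was higher (Lep, leptin, log2 ratio 0.83). Of 13 smooth muscle and pericyte markers 0 were lower and 1 was higher (Synpo2, an actin-binding protein, log2 ratio 0.88, limma adjusted p = 0.00218), and for 10 of 13 every high-gainer array was the higher, where 20.3% of all probes were. Their median log2 ratio was 0.48 and their summed signal 578192 to 597463 in high gainers and 467024 to 483185 in low gainers. At an unadjusted p under 0.05 in limma, 10 of these smooth muscle and pericyte genes were higher and 0 lower, where 17.4% of all probes were higher, and Synpo2 was called in 2 of the 6 fits that left out an array. Of 9 T lymphocyte markers 7 were lower, with sums of 118727 to 140799 in high gainers and 341213 to 395976 in low gainers, and of 8 B lymphocyte markers 8 were lower, with sums of 156545 to 165546 in high gainers and 497533 to 506323 in low gainers. Of 7 markers of glandular epithelium 3 were lower, with sums of 91646 to 131618 in high gainers and 140454 to 168882 in low gainers. Krt19 had values on 0 high-gainer and 2 low-gainer arrays, and Epcam and Krt5 each on 1 and 3. Among lymphocyte markers, Cd3e had values on 2 high-gainer and 3 low-gainer arrays, and Blk on 0 and 2. Ngfr, of nerve, had values on 0 and 1, and Nefl and Nefm were blank on all 6 arrays. Vwf, of endothelium, ran the other way, with values on 2 high-gainer and 0 low-gainer arrays. Of 7 brown and beige adipocyte markers, 1 was lower (Ucp1, the uncoupling protein, log2 ratio -2.77), with sums of 885021 to 927643 in high gainers and 1100790 to 1131045 in low gainers. For 4 of the 7 every high-gainer array was the lower and for 2 the higher, where 16.3% and 20.3% of all probes were. Cidea and Elovl3 each had values on 2 high-gainer and 3 low-gainer arrays, and Zic1 was blank on all 6 arrays. The part of these cell types in the muscle result was not tested, and with 1 pool a group, weight gain and the makeup of the dissected tissue cannot be told apart.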

How the data were processed

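RNA of inguinal fat was measured in 2 pools of 8 mice, each on 3 arrays that repeat the pool. The authors made labeled cRNA, measured it on one-color chemiluminescent arrays and applied quantile normalization. The deposited intensities are linear, and some cells are blank. Each array held 18018 to 20605 values for 33012 probes. Precision is limited by the number of arrays.

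The 15821 probes with 6 values were log2 transformed without further normalization and compared with limma 3.58.1 (lmFit, eBayes) in R 4.3.3, with Benjamini-Hochberg adjustment over all of them. The methods' t-test was run at their unadjusted threshold and fold. Probes were named by an annotation table (14411 with 1 symbol, 247 with several, 18354 with none), with 14402 symbols updated through RefSeq (GRCm38.p6), and probes with several symbols named no gene. A gene is its brightest probe with 6 values, and 3 of the genes had 2 such probes. Isoform pairs were compared by a linear contrast per array and an exact permutation test. The procedure was tested on simulated arrays.

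Values are given by array for the isoform pairs and for the 2 brightest and 2 most changed genes of each role, and other genes so given were chosen after their values were seen. The genes and lists were chosen with earlier results of these data known. Promoter motifs were searched in the 250 bases upstream, on both strands. Alternatives covered normalization, centering, dim probes, an offset, the variance model, thresholds, blanks, probe choice, a replicate block and leaving out each array. Deviations of same-numbered arrays correlated at r = 0.04, -0.11 and 0.27, so the numbers were not taken as pairs.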

Additional observations from a re-analysis of the deposited data

How the results depend on the processing

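The 14 alternatives other than leaving out an array gave 3 to 17 members called lower, against 15, and 0 higher in each. Over all alternatives 0 of 506 single log2 ratios of members reversed, 68 lost the call and 10 gained it. Settings that changed only the test, threshold, variance model, replicate block or dim-probe filter left each log2 ratio unchanged and could not reverse it. With Benjamini-Hochberg adjustment of the methods' t-test, 3 members were lower (2 fast, 1 shared, 0 other muscle genes; 0.702% of all probes), and with a 2-fold threshold 4 (1 fast, 3 shared, 1 other muscle gene; 2.54%). With the array number as a replicate block, 8 were lower (4 fast, 4 shared, 2 other muscle genes, against 2.82% of all probes). Without the probes below the median, 5 shared genes were called, at a median of -0.70, and no slow gene was left. Slow genes were called under 0 of the alternatives. Centering on the median change of adipocyte markers, which shifts every log2 ratio by -0.16, gave medians of -0.96 for all members, -1.01 for fast, -0.95 for shared genes, -0.39 for slow genes, and 9 other muscle genes lower, with 6.04% of all probes lower. An offset of the 10th percentile (2848) gave -0.68 for all, -0.79 for fast, -0.65 for shared and -0.15 for slow genes. For shared genes the median was -0.70 with probes of a gene averaged and -0.75 with values on at least 2 arrays of each pool.

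Leaving out 1 array gave 7 to 11 members lower, 3 to 6 fast, 4 to 6 shared and 1 to 3 other muscle genes, with 2.33 to 3.12% of all probes lower. The lowest count of members, 7, came without high-gainer array 1, and 8 were called without high-gainer array 2 or low-gainer array 3. Medians ranged from -0.80 to -0.69 for all members, -0.86 to -0.81 for fast, -0.82 to -0.68 for shared and -0.34 to -0.06 for slow genes. Ckm, Ckmt2, Mb, Myot, Myoz1, Pvalb and Tnnt3 were called in 6 of 6 of these fits, Mybpc1 in 4, Tnni2 in 3, Tnnc2 in 2, Acta1, Mylpf and Pygm in 1, and Atp2a1 and Eno3 in 0 of 6. The difference of Myl1 and Myl3 turned to -0.18 with probes of a gene averaged and ranged from -0.11 to 0.33 without 1 array, reversed (-0.11) without low-gainer array 3. Except where the setting leaves fewer arrays or probes, the cause was not tested.

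With 1 pool a group, no value covers the spread between mice. Blanks and dim signal limit the slow genes most.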

Other observations

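Among regulators of the muscle lineage, the MyoD family, Pax7 and Mstn had dim signals or blanks. Mef2c and Mef2d had 6 values on probes that were not dim, and Mef2a had 6 on a dim probe. None of these MEF2 genes was called (log2 ratios -0.25 for Mef2c, -0.19 for Mef2d and 0.21 for Mef2a). Myog, myogenin, which drives the differentiation of muscle cells, had no value on the 3 high-gainer arrays and 1579, 2984 and 2173 on the low-gainer arrays. Myf6, which is kept on in mature fibers, had 1929 on 1 high-gainer array and 1318, 1559 and 1486 on the low-gainer arrays. Myod1 had 1021, 1712 and 1103 in high gainers and 1647 and 1121 on 2 arrays in low gainers, which overlap. Myf5, Pax7 and Mstn were blank on all 6 arrays.

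Some sarcomere genes outside the 45 were blank in the same direction. Nrap had no value in high gainers and 1361 and 1519 on 2 arrays in low gainers, and Trim54 had none in high gainers and 1329 and 2215 in low gainers. Others ran the opposite way, such as Dmd, dystrophin, with 4667 and 3056 on 2 arrays in high gainers and no value in low gainers, and Chrne, the adult subunit of the endplate acetylcholine receptor, with 6180, 3285 and 3934 in high gainers and 3843 on 1 array in low gainers. Of 40 other muscle genes with a named probe and a blank, 8 had more values in high gainers, 12 had more in low gainers and 20 had equal numbers, 13 of them with no value at all. The genes named here were chosen after their values were seen, and no fold was computed for those with a blank.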
